A study of Mus musculus with 16 samples.

Results

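TNF receptor superfamily members that act on T cells were followed across stimulation and MALT1 isoform in mouse CD4+ T cells. The group held 6 genes: Tnfrsf4, Tnfrsf9, Tnfrsf18, Cd27, Tnfrsf1b and Tnfrsf11b. Its members were every array probe that the platform annotation assigns to 1 of these symbols. They made up 6 of the 16593 genes named on the array and 11 of its 25697 probes, and all 11 passed the detection filter (detection p under 0.05 on at least 4 of 16 arrays). Tnfrsf4 and Tnfrsf11b had 1 probe each, Tnfrsf9, Tnfrsf18 and Tnfrsf1b had 2 each and Cd27 had 3, numbered within a gene by mean intensity.

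Receptors of this family sit on the T cell surface and bind ligands of the TNF family, which are themselves made by activated lymphocytes or antigen-presenting cells. Ligand binding gathers the receptors' tails, TRAF adaptors are recruited, and the canonical and, for several of these receptors, the noncanonical NF-kB pathways are switched on. They are known as costimulators, since they prolong the survival and expansion of T cells that have met antigen. Tnfrsf11b, osteoprotegerin, is the exception: it is a secreted decoy receptor without a membrane anchor.

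RNA came from MALT1-deficient CD4+ T cells of 4 C57BL/6 mice, and every group therefore lacked endogenous MALT1, the paracaspase and scaffold that carries signals from the T cell receptor to NF-kB. Each mouse gave 1 array to each of 4 groups: isoform A stimulated, isoform B stimulated, mock stimulated and isoform A unstimulated. Reconstitution was by retrovirus, with isoform A, with isoform B or as mock, and stimulated cells had been treated through CD3 and CD28, the antigen receptor complex and its costimulator, for 2.5 h. Unstimulated mock and unstimulated isoform B cells were not analysed here, so mock stimulated against isoform A unstimulated differs in the transgene as well as in stimulation. Each mouse's arrays are paired, and the share of cells that carried the retrovirus is not given in the labels.

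Raw median intensities ran from 121.8 to 138.8, and 10247 to 11012 probes were detected on stimulated arrays, against 11239 to 12085 on unstimulated ones. The highest raw intensity on an array was 34329 to 38404 in mice 1 and 2 and 41735 to 43710 in mice 3 and 4, so values are also given within these pairs of mice, each of which held all 4 groups. Malt1 was read by 1 probe at raw intensities of 120.1 to 140.4, detected on 4 of 16 arrays, and whether it reads the deleted or the returned sequence is not known, so it did not check the labels. Of the CD4 T cell markers, 7 of 7 on the array were detected on all arrays, although Cd4 itself was dim (raw intensity 160.6 to 337.1). Cd8b1 (raw intensity 345.1 to 4455 over its probes), Nkg7, Klrd1 and Prf1, markers of CD8 and cytotoxic lymphocytes, were also detected on every array, while Cd8a, Gzmb and Ncr1 were detected on none. In bulk RNA, a change in the number of cells of a type and a change in RNA per cell cannot be told apart.

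Tnfrsf4 and Tnfrsf18 are near neighbours on mouse chromosome 4, with 1 annotated gene, Gm25982, between them, and Tnfrsf9 lies on the same chromosome. Because these genes moved in different directions on stimulation (below 0 for Tnfrsf18, above 0 for both others), their promoter windows are shown next to each other. Each window is 300 bases of RefSeq sequence (assembly GRCm38.p6), with 250 bases before and 50 bases after the annotated gene start, all on the + strand. They cover chr4:156013445-156013744 for Tnfrsf4, chr4:156026072-156026371 for Tnfrsf18, chr4:150919905-150920204 for the first annotated start of Tnfrsf9 and chr4:150927749-150928048 for its second start. Capitals mark matches to the NF-kB core (GGG, any 5 bases, CC) and to the AP-1 motif TGANTCA, and windows without such a match are all in lower case.
Tnfrsf4: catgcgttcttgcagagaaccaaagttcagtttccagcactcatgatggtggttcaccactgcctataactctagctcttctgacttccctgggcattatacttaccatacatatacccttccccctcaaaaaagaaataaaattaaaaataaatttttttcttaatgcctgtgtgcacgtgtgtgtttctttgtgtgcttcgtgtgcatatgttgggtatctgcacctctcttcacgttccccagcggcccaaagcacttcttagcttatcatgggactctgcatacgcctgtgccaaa
Tnfrsf18: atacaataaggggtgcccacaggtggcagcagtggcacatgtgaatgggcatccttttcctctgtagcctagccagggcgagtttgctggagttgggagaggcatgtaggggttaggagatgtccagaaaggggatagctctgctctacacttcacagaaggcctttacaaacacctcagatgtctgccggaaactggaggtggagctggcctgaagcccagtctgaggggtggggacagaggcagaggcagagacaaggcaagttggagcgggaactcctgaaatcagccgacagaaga
Tnfrsf9 first start: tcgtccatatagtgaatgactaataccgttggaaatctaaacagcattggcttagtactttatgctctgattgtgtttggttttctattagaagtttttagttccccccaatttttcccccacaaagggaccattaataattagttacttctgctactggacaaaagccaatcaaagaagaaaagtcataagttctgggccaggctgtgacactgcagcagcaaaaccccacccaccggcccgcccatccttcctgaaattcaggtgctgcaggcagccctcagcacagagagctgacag
Tnfrsf9 second start: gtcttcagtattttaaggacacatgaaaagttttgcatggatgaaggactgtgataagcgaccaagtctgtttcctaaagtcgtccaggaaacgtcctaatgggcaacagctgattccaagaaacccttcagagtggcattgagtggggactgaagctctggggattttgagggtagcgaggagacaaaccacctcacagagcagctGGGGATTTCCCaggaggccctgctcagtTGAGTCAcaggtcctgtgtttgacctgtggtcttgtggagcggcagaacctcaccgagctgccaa
The second start of Tnfrsf9 held 2 overlapping NF-kB core matches, whose first bases lie 43 and 42 bases before the start, and 1 AP-1 match beginning 15 bases before it. Tnfrsf4, Tnfrsf18 and the first Tnfrsf9 start held 0 matches to either motif. On both strands, the NF-kB core occurred in 50.8% of 32851 promoter windows of this length and the AP-1 motif in 7.81%. The NFAT core GGAAA, found in 61.3% of windows, had 1 match in Tnfrsf4, 2 in Tnfrsf18, 2 at the first Tnfrsf9 start and 3 at its second. Cd27 held 2 overlapping NF-kB core matches, 0 AP-1 matches and 1 NFAT core match, and Tnfrsf1b held 3 overlapping NF-kB core matches and 0 of the others. These letter matches are descriptions of the windows, and which start the arrayed transcripts used is not known.

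Most of the receptors rose on stimulation. In isoform A stimulated against isoform A unstimulated cells, 8 of 11 member probes were higher and 2 were lower (limma, Benjamini-Hochberg adjusted p under 0.05 over 12344 probes). Across all probes, 66% passed in either direction, 31% higher and 34.9% lower, so that most probes of the array passed this test. The median log2 difference of the 11 member probes was 1.26, against 0.00 over all probes. In mock stimulated against isoform A unstimulated cells, 9 member probes were higher and 2 lower (65.3% of all probes passed, 31% higher and 34.4% lower), with a median log2 difference of 1.17, against 0.01 over all probes. These 2 comparisons share the unstimulated arrays. The groups of 4 arrays did not overlap for 9 of 11 member probes in the first comparison (60.9% of all probes) and for 10 of 11 in the second (61.4%).

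**Figure D1:**
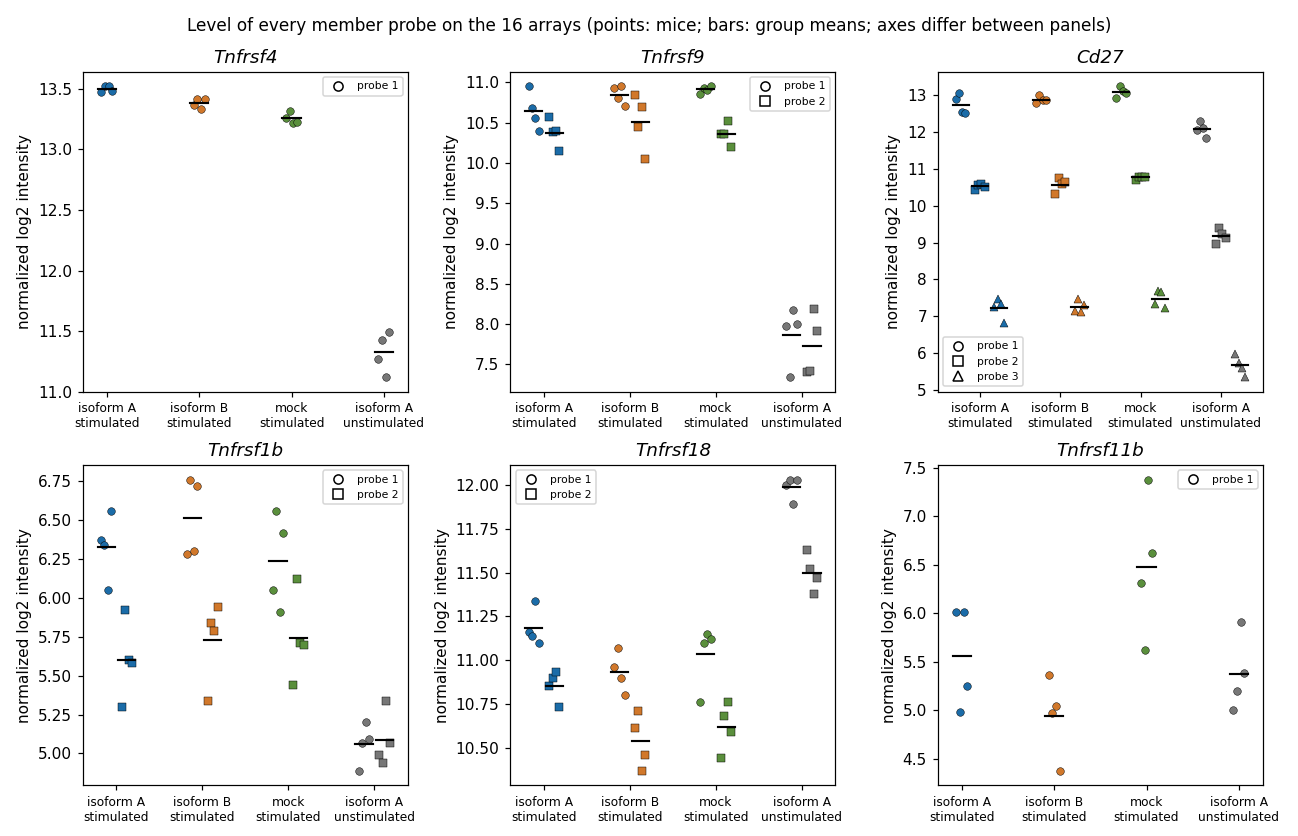
Normalized log2 intensity of each member probe (y axis) in the 4 groups (x axis), with 1 point per mouse and a bar at the group mean; probes differ in brightness, so levels are read within a panel. The stimulated groups lie above the unstimulated group for Tnfrsf4, Tnfrsf9 and Cd27 and below it for both Tnfrsf18 probes.

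Tnfrsf4, which encodes OX40, a receptor that sustains helper T cell survival and memory, rose on stimulation in every mouse. Its normalized log2 intensity in mice 1 to 4 was 13.47, 13.52, 13.52 and 13.48 in isoform A stimulated cells and 13.37, 13.42, 13.33 and 13.42 in isoform B stimulated cells. It was 13.26, 13.32, 13.22 and 13.23 in mock stimulated cells, against 11.27, 11.43, 11.12 and 11.49 in isoform A unstimulated cells. All 12 stimulated arrays lay above all 4 unstimulated ones, and the stimulated groups themselves stood one above the other in the order isoform A, isoform B and mock, without overlap. The difference on stimulation was 2.17 ± 0.08 with isoform A (log2, SE of the limma fit, n = 4 mice per group), a 4.51-fold rise (limma adjusted p = 5.11e-13). It was 2.15 in mice 1 and 2 and 2.20 in mice 3 and 4. With mock it was 1.93 ± 0.08, or 3.81-fold (limma adjusted p = 2.69e-12).

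Tnfrsf9, which encodes CD137, an inducible costimulator of T cells, showed the largest rise among the members. Probe 1 read 10.95, 10.68, 10.56 and 10.40 in isoform A stimulated cells of mice 1 to 4 and 10.93, 10.80, 10.95 and 10.71 in isoform B stimulated cells. The values were 10.86, 10.93, 10.91 and 10.95 in mock stimulated cells, against 7.97, 7.34, 8.17 and 8.0 in isoform A unstimulated cells. The stimulated arrays were all higher than the unstimulated ones, while the 3 stimulated groups overlapped. The rise was 6.86-fold with isoform A (2.78 ± 0.15, limma adjusted p = 3.02e-11) and 8.23-fold with mock (3.04 ± 0.15, limma adjusted p = 1.08e-11). Probe 2 gave 6.24-fold with isoform A (2.64 ± 0.18, limma adjusted p = 7.05e-10) and 6.18-fold with mock (2.63 ± 0.18, limma adjusted p = 8.44e-10). With isoform A, the probe 1 difference was 3.16 in mice 1 and 2 and 2.40 in mice 3 and 4, and that of probe 2 was 3.07 and 2.22, so both probes rose within each pair of mice.

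Tnfrsf18, which encodes GITR, a receptor that is high on regulatory T cells and induced on activated ones, went the other way and fell on stimulation. Its probe 1 read 11.16, 11.14, 11.34 and 11.10 in isoform A stimulated cells and 10.96, 11.07, 10.90 and 10.80 in isoform B stimulated cells. It read 10.76, 11.10, 11.15 and 11.12 in mock stimulated cells, against 12.00, 12.03, 11.89 and 12.03 in isoform A unstimulated cells. Every stimulated array was below every unstimulated one. The fall was 1.74-fold with isoform A (-0.80 ± 0.10 on the log2 scale, limma adjusted p = 1.32e-06) and 1.94-fold with mock (-0.95 ± 0.10, limma adjusted p = 1.68e-07). Probe 2 fell 1.57-fold with isoform A (-0.65 ± 0.10, limma adjusted p = 1.56e-05) and 1.84-fold with mock (-0.88 ± 0.10, limma adjusted p = 4.17e-07). Within pairs of mice, probe 1 with isoform A gave -0.86 in mice 1 and 2 and -0.74 in mice 3 and 4, and probe 2 gave -0.70 and -0.60.

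Other genes marking regulatory T cells were read beside Tnfrsf18, with 5 of 6 on the array passing the detection filter. Foxp3, their defining transcription factor, had 3 probes at raw intensities of 113.1 to 158.8, and Ikzf2 was detected on no array. With isoform A, 3 of the 5 were higher on stimulation and 0 lower (29.6% of 8480 genes, each read by its brightest probe, were higher and 36.8% lower), among them Il2ra (0.50 ± 0.12, limma adjusted p = 0.00126). Foxp3 gave -0.25 ± 0.15 (limma adjusted p = 0.156) and Ctla4, an inhibitory receptor of these cells, -0.38 ± 0.42 (limma adjusted p = 0.454). With mock, 3 were higher and 2 lower (29.6% of all genes higher and 36.1% lower). The 2 lower genes were Ctla4 (-0.999 ± 0.42, limma adjusted p = 0.0478) and Foxp3, at least 1.15-fold (limma adjusted p = 0.0335). The brightest Foxp3 probe was detected on no mock stimulated array, and another of its probes on 1. Its other probe past the detection filter gave -0.26 with mock. Il2ra gave 0.35 ± 0.12 with mock (limma adjusted p = 0.0157). The summed linear intensity of the list ran from 2471 to 3338 in isoform A stimulated cells, 2256 to 2824 in isoform B stimulated cells and 2432 to 2790 in mock stimulated cells, against 934 to 1393 in isoform A unstimulated cells. Nrp1 and Il2ra were the brightest of the 5, so the sum mainly followed them. With isoform A, mean log2 intensity, stimulated against unstimulated, was 10.45 against 7.11 for Nrp1 and 10.15 against 9.65 for Il2ra. It was 6.02 against 5.41 for Gpr83, 6.15 against 6.53 for Ctla4 and 4.91 against 5.17 for Foxp3. The part of regulatory T cells in the fall of Tnfrsf18 was not tested.

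Cd27, a receptor present on resting T cells that binds CD70, rose on stimulation by all 3 probes, but by different amounts. Probe 1 read 12.89, 13.05, 12.54 and 12.51 in isoform A stimulated cells and 12.78, 13.01, 12.88 and 12.86 in isoform B stimulated cells. It read 12.93, 13.24, 13.12 and 13.07 in mock stimulated cells, against 12.06, 12.30, 12.12 and 11.85 in isoform A unstimulated cells. Stimulated arrays were again all above the unstimulated ones, with the isoform A values of mice 3 and 4 the lowest of the stimulated cells. The rise of probe 1 was 1.58-fold with isoform A (0.66 ± 0.13, limma adjusted p = 0.000181) and 2.01-fold with mock (1.01 ± 0.13, limma adjusted p = 1.86e-06). Probe 2 rose 2.54-fold with isoform A and 3.01-fold with mock, and probe 3 rose 2.94-fold with isoform A and 3.50-fold with mock. The 3 probes thus shared a direction and not a size, and which transcripts each of them reads is not known. Within pairs of mice the isoform A differences were 0.79 and 0.54 for probe 1, 1.31 and 1.38 for probe 2 and 1.51 and 1.60 for probe 3, each with mice 1 and 2 first.

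Tnfrsf1b encodes TNFR2, the receptor through which TNF costimulates T cells, and its 2 probes were dim but detected on all 16 arrays. Probe 1 read 6.37, 6.34, 6.05 and 6.56 in isoform A stimulated cells and 6.28, 6.76, 6.30 and 6.72 in isoform B stimulated cells. It read 6.05, 6.56, 5.91 and 6.42 in mock stimulated cells, against 4.89, 5.07, 5.20 and 5.09 in isoform A unstimulated cells. Stimulated and unstimulated arrays did not overlap on this probe, which rose 2.40-fold with isoform A (1.26 ± 0.16, limma adjusted p = 1.29e-06) and 2.25-fold with mock (1.17 ± 0.16, limma adjusted p = 3.45e-06). Probe 2 rose less, 1.43-fold with isoform A (0.51 ± 0.16, limma adjusted p = 0.0101), with the 2 groups overlapping, and 1.58-fold with mock (0.66 ± 0.16, limma adjusted p = 0.00182). Its isoform A call was lost with median scaling in place of quantile normalization (0.28, limma adjusted p = 0.149) and in mice 1 and 2 alone (0.64, limma adjusted p = 0.0668). Probe 1 gave 1.37 in mice 1 and 2 and 1.16 in mice 3 and 4.

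Tnfrsf11b, the decoy that captures RANKL and TRAIL, lay close to background, with detection on 3, 2, 4 and 4 arrays of the isoform A stimulated, isoform B stimulated, mock stimulated and isoform A unstimulated groups. Its raw intensities were 167.6, 141.2, 152.3 and 134.3 in isoform A stimulated cells and 155.6, 132.6, 133.7 and 109.6 in isoform B stimulated cells. They were 204.7, 144.5, 249.9 and 179.8 in mock stimulated cells, against 140.3, 154.1, 190.1 and 151.1 in isoform A unstimulated cells. With isoform A the log2 difference on stimulation was 0.19 ± 0.33 (95% interval -0.50 to 0.88, limma adjusted p = 0.639), and it was 0.39 in mice 1 and 2 and -0.02 in mice 3 and 4. Mock stimulated cells were 2.15-fold higher than unstimulated isoform A cells (1.11 ± 0.33, limma adjusted p = 0.00668), with 4 of 4 mice higher and the groups overlapping.

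**Figure D2:**
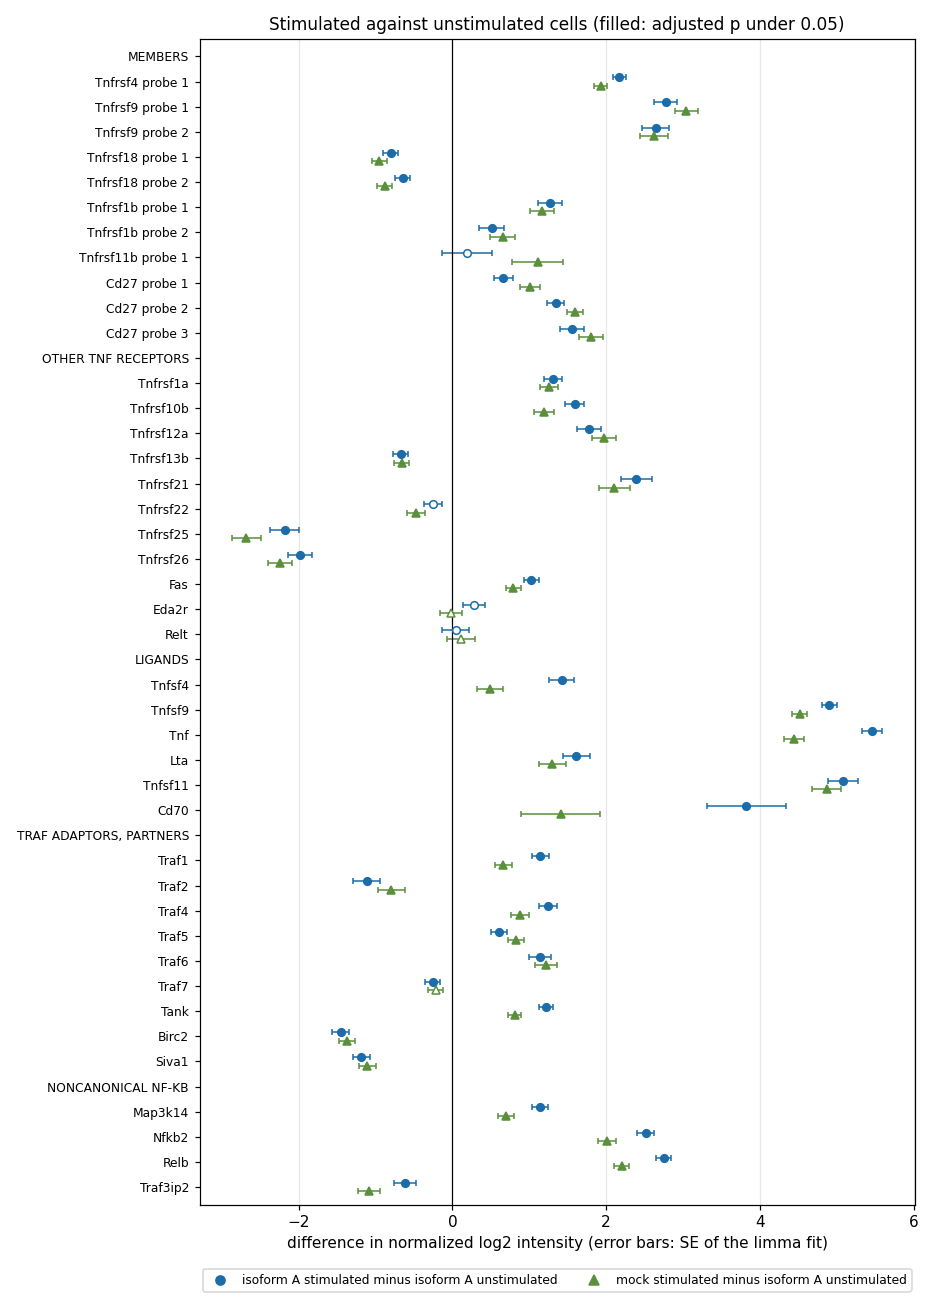
Difference in normalized log2 intensity (x axis) of isoform A stimulated minus isoform A unstimulated cells (circles) and of mock stimulated minus isoform A unstimulated cells (triangles) for the member probes and for listed genes of the same pathway; bars are the SE of the limma fit and filled symbols passed an adjusted p of 0.05. Tnfrsf9 at 2.78 and Tnfrsf18 at -0.80 with isoform A mark the ends among the members; Tnfsf9, Tnfrsf13b and, for mock, Tnfrsf26 were not above background in 1 of the groups compared, so their plotted differences are not measured sizes.

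Most ligands of these receptors rose with them. Of 8 ligand genes, 6 were detected and 6 were higher with isoform A (29.6% of all genes were higher and 36.8% lower). The same 6 were higher with mock (29.6% of all genes higher and 36.1% lower). Both counts include Tnfsf9, which passed the detection filter only through stimulated arrays, so no median size is given for the 6. Tnf, a ligand of TNFR2, rose 44.0-fold with isoform A (limma adjusted p = 1.10e-15) and 21.7-fold with mock. Tnfsf11, or RANKL, which osteoprotegerin captures, rose 34.0-fold with isoform A and 29.2-fold with mock. Tnfsf9, the ligand of CD137, was detected on no unstimulated array and was at least 26.5-fold higher with isoform A and at least 20.3-fold higher with mock. Such bounds set the stimulated mean against the lowest signal detected on the unstimulated arrays, or the probe's own where higher. Cd70, the ligand of Cd27, gave 3.82 ± 0.52 with isoform A and 1.41 ± 0.52 with mock, and Tnfsf4, the ligand of OX40, gave 1.42 ± 0.17 and 0.49 ± 0.17 in the same order. Tnfsf18, the ligand of GITR, and Tnfsf10, or TRAIL, did not pass the detection filter.

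Among 22 other receptors of the family, 11 were detected, and with isoform A 5 were higher and 3 lower (29.6% of all genes were higher and 36.8% lower). Tnfrsf21, or DR6, rose 5.25-fold with 0.83 on the log2 scale on its other probe, and Tnfrsf12a, the TWEAK receptor, gave 1.78 ± 0.16 with only 1 of 4 unstimulated arrays detected. Tnfrsf25, or DR3, a further T cell costimulator, fell 4.54-fold with isoform A (-2.18 ± 0.18, limma adjusted p = 1.11e-08, and -0.67 on its other probe) and 6.41-fold with mock, and Tnfrsf26 was lower by -1.98 ± 0.16 with isoform A, with 1 of 4 isoform A stimulated arrays detected, and at least 3.59-fold lower with mock, with 0 of 4 detected. A fall on stimulation was therefore measured for Tnfrsf25 as well as for Tnfrsf18, and Tnfrsf26 fell to near background. With mock, 5 of the 11 were higher and 4 lower (29.6% of all genes higher and 36.1% lower). With the mouse as a block, Tnfrsf22 was also lower with isoform A (-0.25 ± 0.11 and limma adjusted p = 0.0627 without the block, 0.0291 with it), but gave 0 on its other probe.

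The intracellular partners moved in both directions. Of 12 TRAF adaptors and partners listed, 9 were detected, with 5 higher and 4 lower with isoform A, and 5 higher and 3 lower with mock. Over all genes, 29.6% were higher and 36.8% lower with isoform A, and 29.6% and 36.1% with mock. These shares also stand beside the counts of the next lists. Tank, which binds TRAF proteins, rose 2.32-fold with isoform A, and Traf1, itself a target of NF-kB, rose 2.21-fold. Birc2, a ubiquitin ligase that TRAF proteins bring to the receptors, fell 2.74-fold, Siva1, a protein that binds the tail of CD27, fell 2.27-fold, and Traf2 fell 2.17-fold with 2 of 4 stimulated arrays detected. Of the genes listed for noncanonical NF-kB, 4 were detected, of which 3 were higher and 1 lower with isoform A and with mock. Relb gave 2.75 ± 0.10 and Nfkb2 2.51 ± 0.11 with isoform A, and Map3k14, or NIK, the kinase of that pathway, gave 1.14 ± 0.10. The canonical NF-kB list, of subunits and feedback genes, had 11 detected, with 8 higher and 3 lower in both comparisons. Rel, a subunit, led it at 5.01 ± 0.12 with isoform A, where 3 of 4 unstimulated arrays were detected. Of genes for receptor shedding, Adam17 and Rhbdf2 were detected and both were higher (0.34 ± 0.09 and 1.96 ± 0.13 with isoform A).

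The comparison of the isoforms with mock asks what each returned MALT1 protein adds in stimulated cells. The Tnfrsf11b probe, near background, showed the widest differences among the members, up to -1.54 on the log2 scale. In isoform A stimulated against mock stimulated cells, 0 of 11 member probes passed limma's adjusted threshold, against 4.12% of all probes, 2.34% higher and 1.78% lower. With the mouse as a block, 2 passed, both lower with isoform A (7.67% of all probes passed in that fit). An unadjusted limma p under 0.05 was reached by 5 member probes, among them probes 1 and 2 of Cd27. The share of all probes at that unadjusted p is not given. The groups did not overlap for 2 of 11 member probes, against 9.5% of all probes. The median difference of the members was -0.14, against -0.003 over all probes.

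Tnfrsf4 was 1.18-fold higher with isoform A than with mock (0.24 ± 0.08, 95% interval 0.06 to 0.42, limma adjusted p = 0.128), higher in 4 of 4 mice and without overlap. The adjusted p was 0.0739 with the mouse as a block and 0.0307 without background correction (0.24), which ended on the other side of the threshold. Per mouse the difference was 0.21, 0.20, 0.30 and 0.25 in mice 1 to 4. Cd27 pointed down, with probe 1 at -0.34 ± 0.13 (95% interval -0.61 to -0.08, limma adjusted p = 0.152, 0.0482 with the mouse as a block). That difference was -0.12 in mice 1 and 2 and -0.57 in mice 3 and 4, where it passed the threshold (limma adjusted p = 0.0399). Probe 2 of Cd27 gave -0.25 ± 0.11 (limma adjusted p = 0.212), lower in 4 of 4 mice without overlap, and probe 3 gave -0.25 ± 0.16 (limma adjusted p = 0.427), also lower in 4 of 4 mice. Cd27 was therefore below mock on every probe and in every mouse, by an amount that did not pass the main test.

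The remaining membrane receptors did not pass the adjusted test between isoform A and mock. Tnfrsf9 gave -0.26 ± 0.15 on probe 1 (95% interval -0.58 to 0.05) and 0.01 ± 0.18 on probe 2 (-0.37 to 0.40), so its probes did not share a direction. Tnfrsf18 gave 0.15 ± 0.10 on probe 1 (95% interval -0.06 to 0.36) and 0.23 ± 0.10 on probe 2 (0.03 to 0.44, limma adjusted p = 0.209). Tnfrsf1b gave 0.09 ± 0.16 on probe 1 (95% interval -0.24 to 0.42) and -0.14 ± 0.16 on probe 2 (-0.49 to 0.20). These intervals leave room for differences of the sizes they span, and a p past 0.05 does not show that the groups were alike.

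In isoform B stimulated against mock stimulated cells, 1 of 11 member probes passed, the Tnfrsf11b probe, which was lower (1.48% of all probes passed, 0.745% higher and 0.737% lower). An unadjusted p under 0.05 was reached by 1 member probe, and the share of all probes at that p is not given. The groups did not overlap for 2 of 11, against 7.34% of all probes. The isoform B and isoform A comparisons share the mock arrays. Tnfrsf4 gave 0.13 ± 0.08 with isoform B (95% interval -0.05 to 0.31, limma adjusted p = 0.653), higher in 4 of 4 mice without overlap. Cd27 probes 1, 2 and 3 gave -0.21 ± 0.13, -0.20 ± 0.11 and -0.21 ± 0.16 with isoform B, with the smallest limma adjusted p at 0.524. Tnfrsf9 gave -0.07 ± 0.15 and 0.14 ± 0.18 on its 2 probes, Tnfrsf18 gave -0.10 ± 0.10 and -0.08 ± 0.10, and Tnfrsf1b gave 0.28 ± 0.16 and -0.02 ± 0.16. Of these, Tnfrsf1b probe 1 was higher in 4 of 4 mice (95% interval -0.05 to 0.61).

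**Figure D3:**
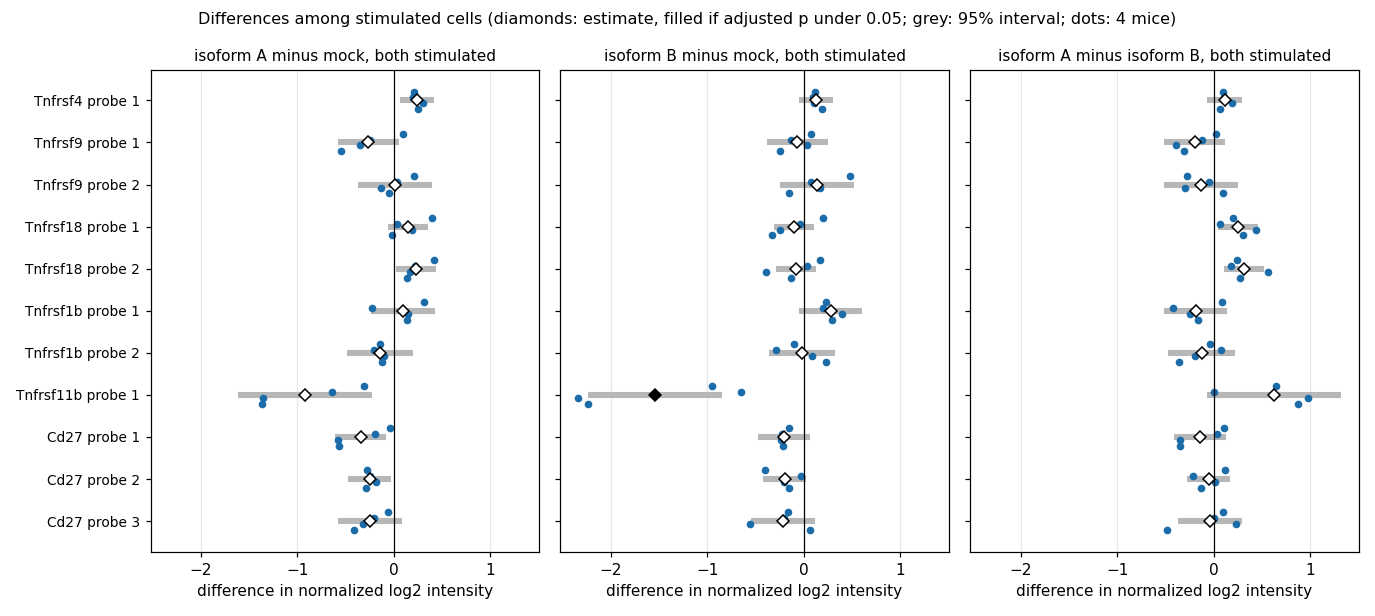
Differences in normalized log2 intensity (x axis) between stimulated groups for each member probe: isoform A minus mock, isoform B minus mock and isoform A minus isoform B, with diamonds at the estimate, grey bars for the 95% interval of the limma fit and dots for the 4 mice. Tnfrsf11b with isoform B at -1.54 was past the adjusted threshold, and the other member differences lay nearer 0.

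Tnfrsf11b was lower with isoform B than with mock, near the array's background. Its normalized log2 intensity was 6.01, 4.98, 6.02 and 5.25 in isoform A stimulated cells and 5.36, 4.97, 5.05 and 4.38 in isoform B stimulated cells, against 6.31, 5.62, 7.38 and 6.62 in mock stimulated cells. The isoform B values lay below all mock values, and the isoform A values overlapped them. With isoform B it was 2.92-fold lower (-1.54 ± 0.33, limma adjusted p = 0.0235, 0.00354 with the mouse as a block), lower in 4 of 4 mice. The difference was -0.80 in mice 1 and 2 (limma adjusted p = 0.42) and -2.29 in mice 3 and 4 (limma adjusted p = 0.0751). The call was lost when isoform B replicate 2, 3 or 4 or mock replicate 3 or 4 was left out (differences -1.55, -1.58, -1.36, -1.24 and -1.499, limma adjusted p 0.0598, 0.05, 0.0717, 0.0714 and 0.067), and with no detection filter (limma adjusted p = 0.0616). With isoform A it gave -0.92 ± 0.33 (95% interval -1.61 to -0.22, limma adjusted p = 0.137), -0.47 in mice 1 and 2 and -1.36 in mice 3 and 4. The mouse as a block gave an adjusted p of 0.0421 for isoform A, and leaving out mock replicate 2 gave -1.21 (limma adjusted p = 0.0453).

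**Figure D4:**
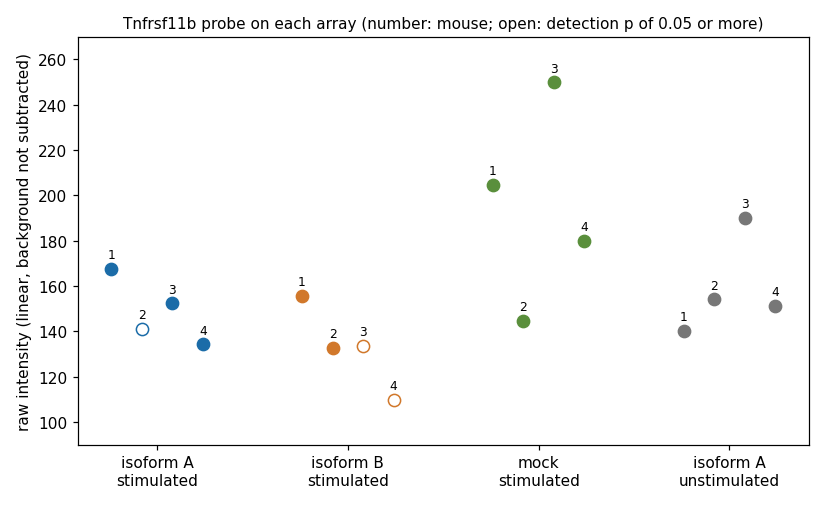
Raw intensity of the Tnfrsf11b probe (y axis, not starting at 0) in the 4 groups, with points numbered by mouse and filled where the detection p was under 0.05. Mock stimulated values reach 249.9 and isoform B values stay at or below 155.6.

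Haemoglobin RNA was higher in the mock stimulated group as well. Hba-a1, an erythroid marker, had a normalized log2 intensity of 5.68, 6.40, 5.58 and 5.79 in isoform A stimulated cells and 4.82, 5.53, 5.77 and 4.91 in isoform B stimulated cells, against 6.32, 8.75, 9.87 and 7.77 in mock stimulated cells. It was lower with isoform B than with mock by -2.92 ± 0.51 (limma adjusted p = 0.00596) and with isoform A by -2.32 ± 0.51 (limma adjusted p = 0.016). Of 3 erythroid genes on the array, Hba-a1 and Car2 passed the detection filter, while Alas2 was detected on no array. Both were called lower with isoform A than with mock (2.04% of all genes were lower). Car2 gave -0.83 ± 0.21 with isoform B against mock (limma adjusted p = 0.0642, 0.0117 with the mouse as a block). Its mean log2 intensity was 5.69 with isoform A, 5.79 with isoform B and 6.62 with mock. In unstimulated cells it was 4.58, with detection on 0 arrays, so Car2 also differed with stimulation. Their summed linear intensity ran from 84.72 to 143.2 in isoform A stimulated cells and 72.52 to 109.4 in isoform B stimulated cells, against 194.4 to 1049 in mock stimulated cells. Of 6 stromal markers, 0 passed the filter, and Dcn was detected on 1 isoform A stimulated and 1 mock stimulated array. The part of these cells in the Tnfrsf11b difference was not tested.

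The comparison of isoform A with isoform B found 0 of 11 member probes past limma's adjusted threshold, against 0.138% of all probes. At an unadjusted limma p under 0.05 there were 2 member probes, and the share of all probes at that unadjusted p is not given. Those 2 were the probes of Tnfrsf18, which was higher with isoform A in 4 of 4 mice and without overlap. Probe 1 gave 0.25 ± 0.10 (95% interval 0.04 to 0.46, limma adjusted p = 0.379) and probe 2 gave 0.32 ± 0.10 (0.11 to 0.52, limma adjusted p = 0.269, 0.166 with the mouse as a block). The groups did not overlap for 3 of 11 member probes, these 2 and Tnfrsf4, against 3.96% of all probes. Tnfrsf4 gave 0.12 ± 0.08 (95% interval -0.06 to 0.30), and Tnfrsf11b gave 0.63 ± 0.33 (-0.07 to 1.32, limma adjusted p = 0.55). Cd27 gave -0.14, -0.05 and -0.04 on probes 1 to 3, Tnfrsf9 gave -0.20 and -0.13, and Tnfrsf1b gave -0.19 and -0.12.

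Several ligands of the receptors were higher with MALT1 than with mock. With isoform A against mock, 4 of 6 ligands were higher (2.43% of all genes were higher and 2.04% lower), with a median log2 difference of 0.66, against -0.01 over all genes. Tnf was 2.03-fold higher (limma adjusted p = 0.000214), Tnfsf4 1.91-fold (limma adjusted p = 0.00413), Cd70 5.34-fold (limma adjusted p = 0.0138) and Tnfsf9 1.31-fold (limma adjusted p = 0.041). Cd70 read 9.17, 8.31, 7.85 and 9.71 with isoform A and 8.61, 7.31, 6.74 and 9.33 with isoform B, against 6.70, 5.82, 5.50 and 7.35 with mock, so that isoform A and mock did not overlap while the mice differed widely. With isoform B, 2 of 6 ligands were higher than mock (0.802% of all genes higher and 0.837% lower), Tnf 1.95-fold and Tnfsf9 1.43-fold, and Cd70 gave 1.65 ± 0.52 (limma adjusted p = 0.149, 0.00117 with the mouse as a block). Between isoform A and isoform B, 0 of 6 ligands passed limma's adjusted threshold (0.165% of all genes were higher and 0% lower). Tnfsf4 came nearest at 0.69 ± 0.17 (limma adjusted p = 0.148, 0.0473 with the mouse as a block). An unadjusted p under 0.05 was reached by 1 ligand, and the share of all genes at that p is not given.

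Markers of B cells differed among themselves. Of 4 that passed the detection filter, 2 genes of the MHC class II pathway were higher with isoform A than with mock (2.43% of all genes were higher). Cd74 was higher by 1.65 ± 0.36 and H2-Ab1 by 1.52 ± 0.33. The same 2 were higher with isoform B, by 1.59 ± 0.36 and 1.63 ± 0.33 (0.802% of all genes were higher). The other Cd74 probe gave 1.56 with isoform A and 1.52 with isoform B. Further H2-Ab1 probes gave 0.98, 1.03 and 0.64 with isoform A and 1.01, 1.18 and 0.71 with isoform B. The other 2 genes, Ms4a1 and Cd79b, were not called: Ms4a1 gave 0.01 ± 0.12 with isoform A and -0.05 ± 0.12 with isoform B, and Cd79b gave 0.03 ± 0.17 and 0.18 ± 0.17, with detection on 1 of the 12 stimulated arrays. Cd79a and Pax5, which define B cells, did not pass the filter. The summed linear intensity of the 4 ran from 556.9 to 970.1 in isoform A stimulated cells and 355.7 to 1684 in isoform B stimulated cells, against 234.2 to 314.8 in mock stimulated cells. The part of B cells in the ligand and receptor differences was not tested.

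Downstream of the receptors, 2 of 9 TRAF partners were higher with isoform A than with mock, Traf1 at 0.48 ± 0.11 and Tank at 0.41 ± 0.09. The other Tank probes gave 0.46 and 0.09. Over all genes, 2.43% were higher and 2.04% lower in this comparison. The noncanonical genes Relb (0.55 ± 0.10), Nfkb2 (0.50 ± 0.11) and Map3k14 (0.44 ± 0.10) were higher, 3 of 4 measured. Of 11 genes of the canonical list, 3 were higher, Nfkbie at 1.01 ± 0.08, Tnip1 at 0.56 ± 0.14 and the subunit gene Rela at 0.50 ± 0.09. Rhbdf2, which steers the receptor-shedding protease, was higher by 0.55 ± 0.13. With the mouse as a block, 3 TRAF partners, 4 genes of the noncanonical list and 4 of the canonical list passed (7.67% of all probes passed in that fit). The added ones were Traf4 (limma adjusted p = 0.0452, with probes in both directions), Traf3ip2 (0.01) and Nfkbib (0.0239). Of the 11 other receptors of the family, 0 passed limma's adjusted threshold. An unadjusted p under 0.05 was reached by 4 of them, and the share of all genes at that p is not given. Nearest to the adjusted threshold was Tnfrsf10b, a receptor for TRAIL, at 0.40 ± 0.13 (limma adjusted p = 0.0912). Its other probes gave 0.35, 0.29 and -0.55, so they did not share a direction. With the mouse as a block, 2 of the 11 passed, Tnfrsf10b (limma adjusted p = 0.0448) and Tnfrsf25 (0.50 ± 0.18, limma adjusted p = 0.154 without the block and 0.0458 with it). With isoform B, 1 gene of these downstream lists passed, Nfkbie at 0.50 ± 0.08 over mock (0.802% of all genes were higher and 0.837% lower). Rela joined it with the mouse as a block (limma adjusted p = 0.0405). Nfkbie, which encodes the inhibitor IkB epsilon, also differed between isoform A and isoform B (0.51 ± 0.08, limma adjusted p = 0.0108), and with the block so did Traf1 (0.57 ± 0.11, limma adjusted p = 0.0365) and Tnip1 (0.43 ± 0.14, limma adjusted p = 0.0189).

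The genes whose pattern over the 16 arrays lay nearest to each receptor were found by the root mean square difference of gene-centred log2 values, among 8479 genes. Tnfrsf4 had Polr3e (0.108), Ppan (0.115) and Tmem185b (0.126) nearest, with its own spread at 0.896 by the same measure. Tnfrsf9 had Ccdc86 (0.194), Map2k3 (0.204) and Inpp4a (0.209), with a spread of 1.288. Both sets of neighbours rose on stimulation, which follows from their choice by likeness over the same arrays. None of these 6 is a receptor or ligand of the family, of which only 11 other receptors and 6 listed ligands were measured. Tnfrsf18 had Cyba, Cln6 and Mpnd, each at 0.135 with a spread of 0.429, and Cd27 had Pdp2 (0.113), Srebf2 (0.122) and Zhx1 (0.129) with a spread of 0.409. Tnfrsf1b had Cpeb2 (0.141), Fbxo34 (0.16) and Usp38 (0.169). For Tnfrsf11b the nearest, Gcnt2 (0.458), Ccrl2 (0.491) and Jund (0.492), were far off relative to its spread of 0.729.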

How the data were processed

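Gene expression was measured on 16 1-colour Illumina bead arrays, 1 per mouse and group for 4 mice and 4 groups, grouped by the labels. The deposited non-normalized intensity values are linear signals with no background subtracted, as their values show, made with GenomeStudio 2011.1, per the submitters' processing notes. Each stands beside a detection p-value, per the file headers. The series' value table holds the authors' intensity values after background subtraction, down to -20.47, with column medians of 8.065 to 8.109. Its scale was taken as linear from these values, and its normalization method is not stated, so it served as an alternative only. The number of arrays limits the precision.

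Raw intensities were background-corrected by normexp fitted to the detection p-values (limma 3.58.1, statmod 1.5.0, R 4.3.3). Quantile normalization, an offset of 16 and log2 followed. Probes with a detection p under 0.05 on at least 4 arrays were kept (12344 of 25697), and 8480 genes had 1. Symbols come from the platform annotation, which can be old: 23978 probes had 1 symbol, 0 several and 1719 none, and 23962 gene identifiers matched a RefSeq table (GRCm38.p6), used for names and neighbours. A model of 4 group means (12 residual degrees of freedom) gave 2-sided moderated tests, adjusted over all kept probes. The fit assumes 1 spread for the 4 groups. Same-numbered arrays came from 1 mouse: after removal of group means their mean r was 0.272 (24 pairs), against -0.0905 for other mice (72 pairs). A fit with the mouse as a block is named where it changes the call of a member, a ligand, another receptor or a downstream gene.

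All probes of the members are named, as are, of the listed genes, at most the 4 with the lowest p in a comparison and any whose call is discussed, and the 3 nearest genes per member. Listed genes are read by their brightest probe. Members and lists were chosen with earlier results of these data known. Columns that were not mapped to a sample numbered 0.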

Additional observations from a re-analysis of the deposited data

Results flagged for a closer look

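Across the 11 member probes and 4 groups, 44 checks for a mouse far from the other 3 of its group gave 2, about what chance gives at 1 in 20. Tnfrsf18 probe 1 in mock stimulated cells was 10.76 in mouse 1 (normalized log2 intensity), against 11.10 to 11.15 in the other mice, a gap of 0.893 of the group's range. Cd27 probe 2 in mock stimulated cells was 10.71 in mouse 1, against 10.78 to 10.79 in the others, a gap of 0.889 of a narrow range.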

How the results depend on the processing

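Apart from leaving out arrays, 11 alternative settings gave 580 member differences, of which 562 kept their direction and their side of the threshold, 5 lost the call, 4 gained it and 9 changed sign. Leaving out each array gave 880 more, of which 866 kept both, 5 lost the call, 1 gained it and 8 changed sign. For isoform A against unstimulated cells, a fit of 1 probe per gene called 5 of 6 members, and for mock 6 of 6. For isoform A against mock, 0 member calls became 1 without background correction, 2 with the mouse as a block, 1 in mice 3 and 4, and 0 to 1 without single arrays. For isoform B against mock, the 1 call became 0 with no detection filter, 0 in mice 1 and 2, 0 in mice 3 and 4, and 0 to 1 without single arrays.

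Over all probes, isoform A against mock gave 509 calls, 151 with median scaling, 947 with the mouse as a block, 43 in mice 1 and 2, 782 in mice 3 and 4, and 239 to 644 without single arrays (lowest without isoform A replicate 3). Isoform B against mock gave 183, with 80, 432, 13 and 23 in the same order and 111 to 192 without single arrays (lowest without mock replicate 4). Isoform A against isoform B gave 17, with 38 without background correction, 6 in the authors' value table, 29 at an offset of 50, 46 with the block, 2 in mice 1 and 2, 203 in mice 3 and 4 and 5 to 27 without single arrays (lowest without isoform A replicate 3). Median scaling shifted the median of all probes by -0.21 for isoform A and -0.19 for mock against unstimulated cells. The calls then split into 2440 higher and 5177 lower with isoform A, against 3832 and 4314, and 2355 and 5069 with mock, against 3823 and 4241. For isoform B against mock they split into 27 and 53, against 92 and 91.

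Signs changed only for differences that had not passed the test. Against unstimulated cells, Tnfrsf11b with isoform A was -0.148 with median scaling and -0.015 in mice 3 and 4. In mice 1 and 2, isoform A against isoform B gave 0.074 and 0.053 for Cd27 probes 1 and 3 and 0.023 for Tnfrsf1b probe 2, and isoform B against mock gave 0.079 and 0.100 for Tnfrsf18. In mice 3 and 4, isoform A against mock gave -0.090 for Tnfrsf9 probe 2, and isoform B against mock gave 0.158 for Tnfrsf1b probe 2. Without single arrays, Cd27 probes 2 and 3 ran from -0.140 to 0.010 and -0.119 to 0.097 for isoform A against isoform B. Tnfrsf1b probe 1 ran from -0.016 to 0.203 and Tnfrsf9 probe 2 from -0.051 to 0.091 for isoform A against mock, and Tnfrsf1b probe 2 from -0.118 to 0.112 for isoform B against mock. The causes were not tested. Beyond the calls named in the report, the block changed no call of a member. Tnfrsf11b and Tnfrsf1b are limited by their low signal over background.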
